A study of Mus musculus with 44 samples.

Results

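The strain comparison on Illumina MouseRef-8 v2.0 arrays set striatal RNA of 12 C57BL/6J (B6) mice against striatal RNA of 12 DBA/2J (D2) mice, with 1 array per mouse. These are 24 of the 44 arrays of the series, and the other 20 are Affymetrix arrays of other mice of both sexes. All 24 mice were adult, naïve males of inbred strains, with no treatment and no transgene. The question was which genes differ in striatal expression between the strains. Of the 25697 probes on the array, 11072 were tested: those detected above negative control beads (detection p under 0.05) on all 12 arrays of at least 1 strain. They represent 7990 genes, and 616 of the probes carry no gene symbol.

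The striatum is the main input nucleus of the basal ganglia, and most of its neurons are GABAergic medium spiny neurons that receive glutamate from the cortex and dopamine from the midbrain. B6 is the strain of the mouse reference genome, and D2 is an old inbred strain that differs from it in many behaviors tied to the striatum and at many single nucleotide polymorphisms (SNPs). Probes of the array were designed on the B6 sequence. Whole striatal tissue was used, so more cells of a type and more RNA per cell cannot be told apart.

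Values are those of the authors on a variance-stabilized (VST) scale, which follows log2 where probes are bright and is flatter where they are dim, and differences are given on that scale as B6 minus D2. The call of a probe or gene required an adjusted p (Benjamini-Hochberg) under 0.01 in limma. Where a gene had several probes, the one with the lowest adjusted p stood for it. Mean bead signals before normalization ranged from 1223 to 1822 in B6 and from 599 to 1849 in D2, and the D2 arrays numbered 3, 5, 6 and 12 were the dimmest of all. The number of arrays limits the precision, and the median standard error of a difference was 0.07. No probe was removed here for a SNP in its target, so differences of hybridization and of expression cannot be told apart at a single probe. The paper did remove Illumina probes that spanned SNPs, but its list of remaining probes was not used here.

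Markers of medium spiny neurons were looked at first. The 8 described here are the brightest of 27 measured, so their brightness follows from the choice and does not check the tissue label. The mean value of all 27 was 11.71 to 12.34 on B6 arrays with a median of 11.90. On D2 arrays it was 11.40 to 12.21 with a median of 11.78. Pde1b, a calmodulin-dependent phosphodiesterase, had values of 14.93 to 15.77 in B6 with a median of 15.39, and 14.91 to 15.64 in D2 with a median of 15.31. Gng7, the G protein subunit that couples striatal receptors to adenylyl cyclase, had 14.36 to 15.32 in B6 with a median of 14.60, and 14.26 to 15.12 in D2 with a median of 14.68. For Pde1b, Gng7, Rgs9, Arpp21 and the prodynorphin gene Pdyn the ranges overlapped and adjusted p lay between 0.446 and 0.896. The other 3 were called higher in B6, with overlapping strains. Scn4b, a sodium channel subunit, differed by 0.51 (adjusted p = 0.000203), the transcription factor Bcl11b by 0.57 (adjusted p = 0.00248) and the homeobox factor Meis2 by 0.50 (adjusted p = 0.00291). The call of Meis2 was lost without the 4 dimmest D2 arrays. Over all 27 measured markers of medium spiny neurons 5 were called with B6 higher and none with D2 higher (8 and 2 at an unadjusted p under 0.05 in limma), with a median difference of 0.11 against −0.02 over all genes. The 5 were Scn4b, Bcl11b, Meis2, the retinoic acid receptor Rarb and Drd2, the dopamine receptor of the indirect pathway. Omitting any of 16 single arrays ended the call of Drd2 (adjusted p of up to 0.0178). With array medians centered 2 of the 27 were called, both higher in B6, and without the 4 dimmest D2 arrays 3 were higher in B6 and 1 in D2. None of 17 measured markers of cortex and thalamus was called by limma (at an unadjusted p under 0.05, none higher in B6 and 5 in D2), and none of 3 of choroid plexus had an unadjusted p under 0.05. The mean of these 3 varied widely between arrays of a strain. It ran from 9.47 to 12.59 in B6 with a median of 10.565, and from 9.41 to 12.19 in D2 with a median of 9.69.

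Genes that differed between the strains had many functions, and most differences were small. Of the 11072 probes, 1082 (9.77%) were called, and of the 7990 genes, 925 (11.6%). B6 was higher at 498 genes (6.23%) and D2 at 427 (5.34%). At 284 called genes (3.55% of those tested) no B6 value lay within the range of the D2 values, with B6 above at 190 of them and D2 above at 94. The median size of a difference was 0.36 among called genes, and 320 of them differed by less than 0.3. It was at least 1 at 66 called genes, of which 54 were higher in B6 and 12 in D2. These counts and those without overlap include probes kept through 1 strain alone. Such probes were 249 of the 594 called probes higher in B6 and 31 of the 488 higher in D2, so the filter bears on the balance. The balance of directions depends on scaling and on the filter. Of called probes 54.9% were higher in B6, against 85.4% (719 higher in B6 and 123 in D2) when log2 signals were centered on each array's median. That scaling shifted the median difference of all genes by 0.23 toward B6. It moved the median difference of every list toward B6 and so works against calls with D2 higher. Calls with B6 higher still fell in some lists, as from 5 to 2 among markers of medium spiny neurons. Calls kept or lost under it are no independent check of direction. Of the 78 genes called higher in D2 that were named by the rules used here, 44 lost their call under it and 3 changed direction, against 9 and none of the 114 higher in B6. Among probes detected on all 24 arrays, tested alone, 44.6% of calls were higher in B6 (328 against 408).

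**Figure D1:**
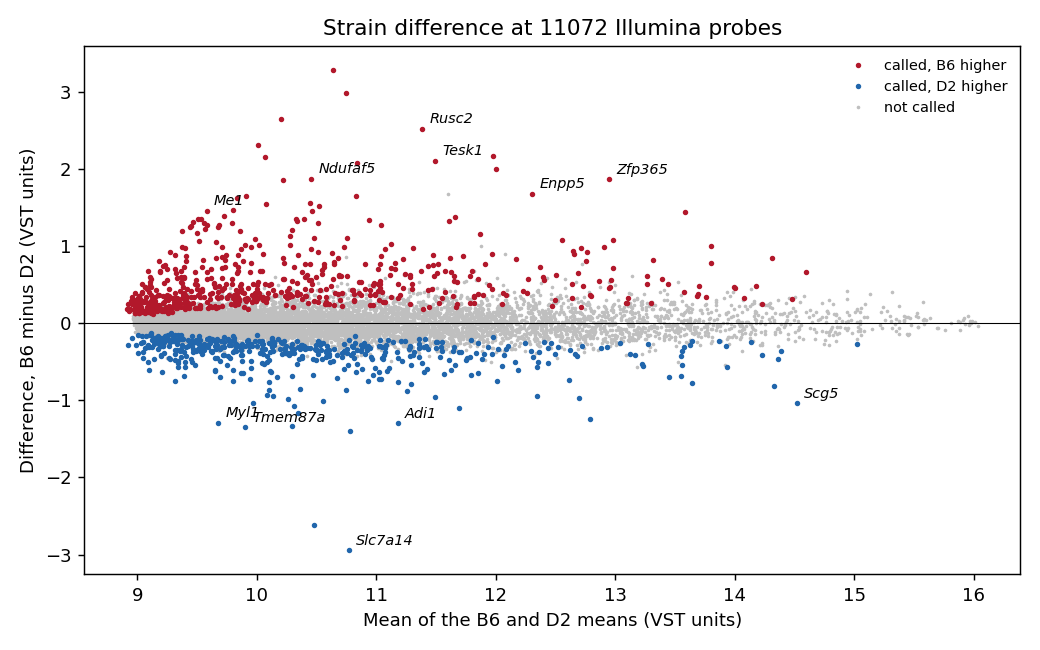
Difference between strains (B6 minus D2, VST units) against the mean of the strain means (VST units) at the 11072 tested probes, with called probes in red (B6 higher) and blue (D2 higher) and the others in gray. Most called probes lie within 1 unit of 0, and more of the large differences lie above 0 than below it. Probes kept through 1 strain alone are included.

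The share of probes called varied little with brightness. It was 10.01% in the dimmest 2768 probes and 8.35% in the brightest 2768. The composition of the probes was also alike: the median GC content of the 50 bases was 52% for called probes higher in B6, 54% for called probes higher in D2 and 52% for probes not called.

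Among genes whose probe was detected on all 24 arrays, the 12 largest differences with B6 higher lay between 1.33 and 2.52. Rusc2, a RUN and SH3 domain protein of vesicle traffic, had values of 12.24 to 13.17 in B6 with a median of 12.57, and 9.75 to 10.77 in D2 with a median of 10.05, a difference of 2.52 (adjusted p = 7.94e-16). Tesk1, a kinase of the actin-severing protein cofilin, had 12.10 to 12.80 in B6 with a median of 12.55, and 9.85 to 10.92 in D2 with a median of 10.42, a difference of 2.103 (adjusted p = 1.52e-15). The lowest B6 array lay more than 1 unit above the highest D2 array for both genes. Fgfr1op2, a fusion partner of a growth factor receptor, differed by 1.99. Ndufaf5, which helps to assemble respiratory complex I, had 10.96 to 11.62 in B6 with a median of 11.44, and 9.09 to 9.89 in D2 with a median of 9.52, a difference of 1.87 (adjusted p = 2.28e-15). Zfp365, a zinc finger protein, was bright in both strains: it had 13.60 to 14.09 in B6 with a median of 13.90, and 11.71 to 12.21 in D2 with a median of 12.05 (difference 1.87, adjusted p = 5.98e-18). Prkag2, a regulatory subunit of the energy sensor AMPK, had 10.99 to 11.44 in B6 with a median of 11.12, and 9.13 to 9.57 in D2 with a median of 9.27 (difference 1.86, adjusted p = 3.06e-19).

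The other 6 of these 12 genes were the phosphodiesterase family member Enpp5 (1.68), the keratin Krt12 (1.56), the Golgi calcium and manganese pump Atp2c1 (1.46), the peroxisomal coenzyme A hydrolase Nudt19 (1.38), the repeat protein Ttc27 (1.34) and the peroxisomal transporter Abcd3 (1.33). Krt12 is known as a keratin of the cornea, and its striatal values were 10.48 to 11.74 in B6 with a median of 11.28, and 9.17 to 10.29 in D2 with a median of 9.66.

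The 12 genes with the largest differences in the other direction included an enzyme of heme synthesis, protease inhibitors and a secretory chaperone. Slc7a14, a relative of the cationic amino acid transporters, had values of 9.18 to 9.44 in B6 with a median of 9.30, and 11.97 to 12.70 in D2 with a median of 12.24. Its difference was −2.94 (adjusted p = 2.46e-22). Ssbp4, a relative of single-stranded DNA-binding proteins, was next with −1.40. Tmem87a, a Golgi membrane protein, had 9.03 to 9.42 in B6 with a median of 9.23, and 10.24 to 10.85 in D2 with a median of 10.60 (difference −1.35, adjusted p = 1.35e-15). Adi1, an enzyme of methionine salvage, had 10.20 to 10.78 in B6 with a median of 10.52, and 11.16 to 12.11 in D2 with a median of 11.88 (difference −1.29, adjusted p = 1.27e-12). Myl1, a myosin light chain of fast skeletal muscle, had 8.95 to 9.20 in B6 with a median of 9.02, near the floor of the scale, and 9.92 to 10.65 in D2 with a median of 10.34 (difference −1.29, adjusted p = 1.66e-14).

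Scg5, the secretory chaperone of the prohormone convertase PC2, was the brightest of these genes. Its values were 13.76 to 14.29 in B6 with a median of 13.98, and 14.48 to 15.29 in D2 with a median of 15.10 (difference −1.04, adjusted p = 5.55e-11). The extracellular protease inhibitors Serpina3n (−1.16) and A2ml1 (−1.07), the heme enzyme Alad (−1.10), the G protein subunit Gnb4 (−1.33), the centrosomal protein Sfi1 (−1.03) and the adapter Shf (−1.005) complete the set. The direction and the call of all 24 genes held under every alternative normalization, filter and variance model tried, and without each array in turn.

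**Figure D2:**
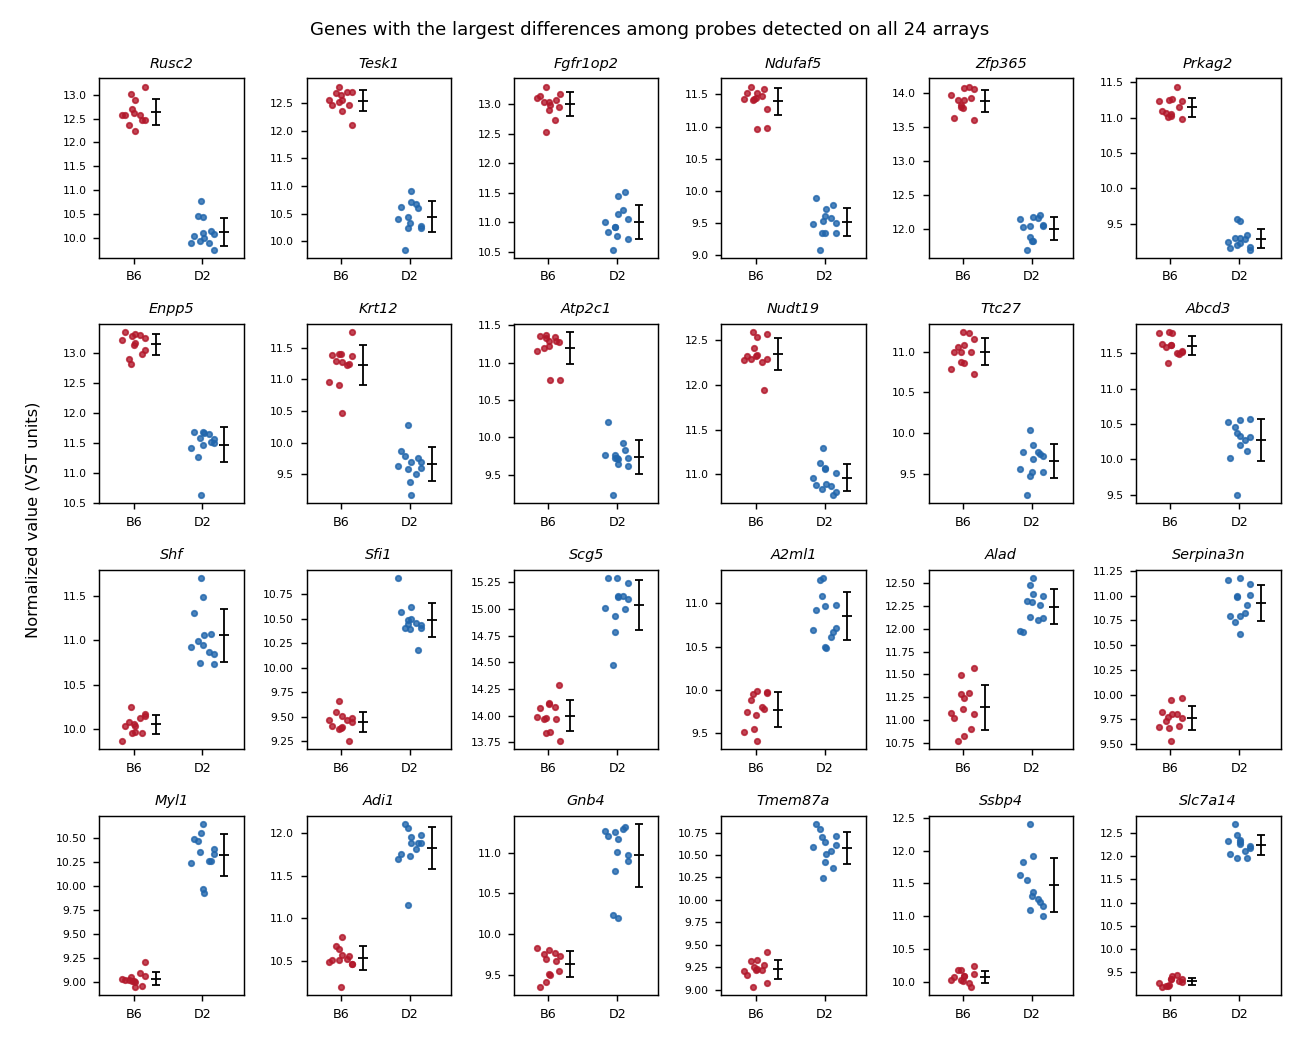
Normalized value (VST units) on each array for the 12 genes that differed most in each direction among probes detected on all 24 arrays. Each point is a mouse, B6 in red and D2 in blue, and bars are the mean and SD of the 12 arrays. The strains do not overlap in any panel because the genes were chosen that way.

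On the Affymetrix arrays, where 12.5% of genes were called, 4 of the 12 genes higher in B6 and 9 of 11 measured genes higher in D2 were called in the same direction. Differences there are of log2 RMA values, B6 minus D2. Probes with SNPs had been masked by the authors on those arrays, which were run with other mice. The 4 genes called higher in B6 were Krt12 (2.18), Nudt19 (1.78), Fgfr1op2 (1.08) and Enpp5 (0.43). Differences of Rusc2 (0.03, adjusted p = 0.747), Tesk1 (0.14, adjusted p = 0.132), Ndufaf5 (−0.14, adjusted p = 0.0957), Prkag2 (0.13, adjusted p = 0.321) and Zfp365 (0.29, adjusted p = 0.104) did not pass. The 9 genes called higher in D2 included Tmem87a (−2.55), Alad (−1.32), Serpina3n (−1.09), A2ml1 (−0.96), Scg5 (−0.92) and Adi1 (−0.85). Slc7a14 (−0.10) and Shf (−0.03) were not. Of all 192 called genes named by the rules used here, 165 were measured there, and 71 were called in the same direction, 9 in the opposite direction and 85 not at all. The 9 include Tenm4, Tmod2, the caspase Casp9, the kinase Camk4 and the cathepsin Ctsc. The part of SNPs in these counts was not tested, and neither was the difference between the counts.

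Several of these genes have more than 1 tested probe, and the probes did not always tell the same. Of the 33 genes named for the size of their difference or for detection in 1 strain, 12 have other tested probes, and 6 of these have at least 1 probe that was not called. Among all 192 named genes the numbers were 60 and 39. The central 30 bases (bases 11 to 40 of 50, 5′ to 3′ as encoded by the probe identifiers of the deposited table) are shown for 3 of the 6 genes whose probes disagreed and for Slc7a14, whose probes agreed. Capitals mark bases in a run of at least 20 that is shared with another probe of the same gene.
Ndufaf5, ILMN_1216813: tggagagctagcaaaactaaatgatgtcat
Ndufaf5, ILMN_2747677: agaaaagccctgctgcaccgagacacaatg
Me1, ILMN_2937261: gaagttgctttaaagcctgtgtggtttccg
Me1, ILMN_2774690: tttcaggtgtgagctaaaagggtacagact
Trim9, ILMN_2800380: gagacagacgccttctctaccctgtctatt
Trim9, ILMN_1246118: accaggccccaggaatgcccaggaaaagca
Trim9, ILMN_2452579: gtgcagtagctacgatgaccgggtggtgct
Slc7a14, ILMN_2719361: GGAAATCTCTTCTGGTGGGTTTCAGTGTGT
Slc7a14, ILMN_2968123: AGGAAATCTCTTCTGGTGGGTTTCAGTGTG

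The first Ndufaf5 probe differed by 1.87, and the second by −0.08 (adjusted p = 0.457), with overlapping strains. For Me1, the cytosolic malic enzyme that makes NADPH, the first probe was detected on 12 of 12 B6 arrays and 0 of 12 D2 arrays, while the second was detected on all 24 and differed by 0.20 (adjusted p = 0.0943). Trim9, a ubiquitin ligase of neurons, had 2 called probes with B6 higher by 0.89 and 0.97 and another that differed by −0.03 (adjusted p = 0.705). The other 3 of the 6 genes were Fgfr1op2, with probes at 1.99 and 0.22 (adjusted p = 0.0262 for the second), Atp2c1, with 1.46 and 0.11 (adjusted p = 0.108), and Shf, with −1.005 and 0.06 (adjusted p = 0.467). The 2 probes of Slc7a14 share a run of 49 bases, so that their differences of −2.94 and −2.62 are close to 1 measurement made again. The same holds for Rusc2, whose 2 probes share 47 bases and differed by 2.52 and 2.16.

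Among all 79 genes with at least 2 called probes, the called probes of 20 shared a run of at least 20 bases. In these 20 the directions never differed, while they differed in 13 of the other 59. The astrocyte glutamate transporter gene Slc1a2 and the peroxiredoxin gene Prdx2 are among the 13. Once array medians were centered, 1 gene had called probes in both directions.

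**Figure D3:**
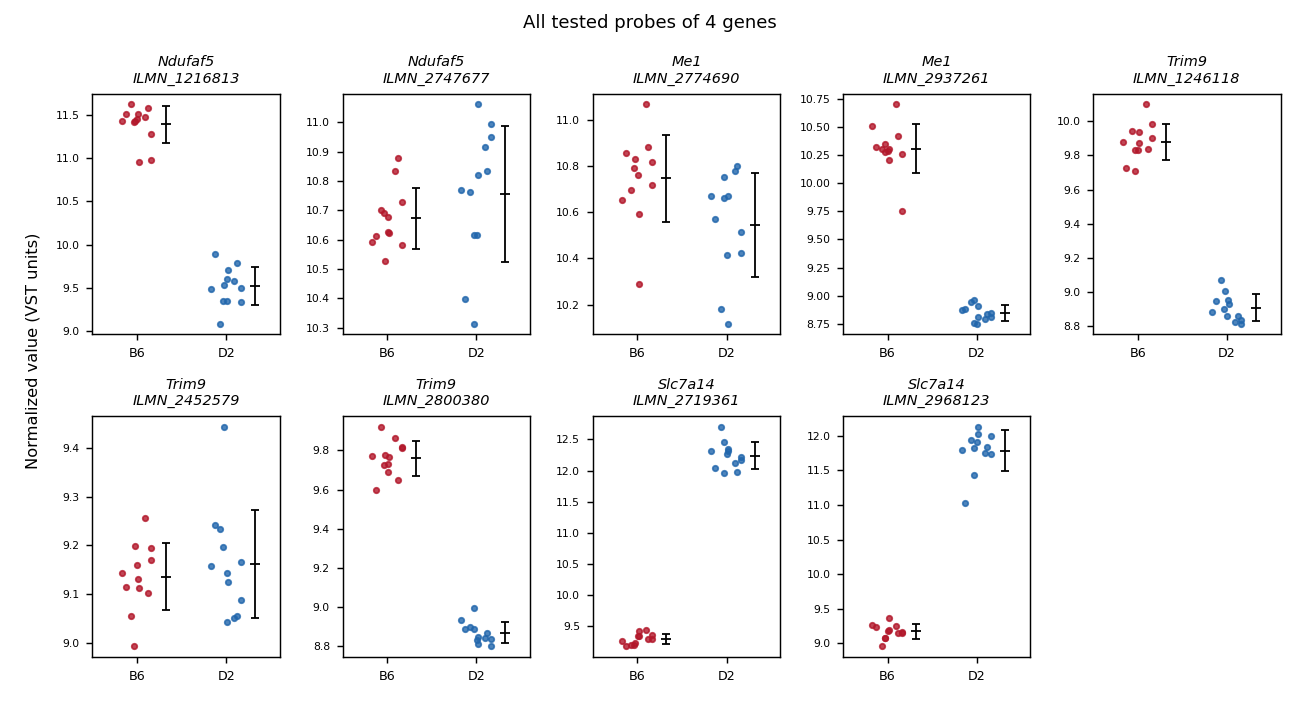
Normalized value (VST units) on each array at every tested probe of Ndufaf5, Me1, Trim9 and Slc7a14, with B6 mice in red, D2 mice in blue and bars for the mean and SD of 12 arrays. The strains overlap at 1 probe each of Ndufaf5, Me1 and Trim9 and at none of Slc7a14.

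Detection itself differed between the strains. Of the tested probes, 8970 were detected on all 24 arrays, 1941 on all B6 arrays but not all D2 arrays, and 161 on all D2 arrays but not all B6 arrays. This imbalance depended on the arrays used. Without the 4 dimmest D2 arrays, 290 probes were detected on every B6 but not every D2 array and 814 on every D2 but not every B6 array. Detection was then required on fewer D2 than B6 arrays, which can only lower the first count and raise the second. The part of dimness in this change can thus not be told apart. Probes detected on all arrays of 1 strain and on none of the other numbered 36 for B6 and 4 for D2, or 43 and 13 without these arrays. Leaving out D2 arrays can only raise both counts. A probe kept through 1 strain alone had to differ in detection, so these counts describe the filter and support nothing else. At probes not detected in 1 strain, that strain gives only a bound, computed on log2 signals after normexp correction against the lowest detected signal of each array. The adjusted p of such a probe describes a probe chosen for detection in 1 strain and is no independent support of the difference. The same holds for any probe kept through 1 strain alone, also where it was detected on some arrays of the other strain. Such probes made up 249 of the 594 called probes higher in B6 and 31 of the 488 higher in D2.

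Me1 was at least 13.1-fold higher in B6, with VST values of 9.75 to 10.70 in B6 with a median of 10.30, and 8.75 to 8.96 in D2 with a median of 8.84 (adjusted p = 1.7e-15). Sspn, sarcospan of the dystrophin complex, was at least 11.6-fold higher in B6, with 9.89 to 10.37 in B6 with a median of 10.20, and 8.76 to 8.98 in D2 with a median of 8.80 (adjusted p = 2.07e-18). All D2 values at the leading probes of both genes lay near the floor of the scale, well below the lowest B6 value. The bounds were 10.85-fold for Fcer1g, the signaling chain of Fc receptors in microglia, and 10.2-fold for Mettl14, a subunit of the RNA N6-adenosine methyltransferase. Rnf20, a ligase of histone H2B, had a bound of 9.99-fold. For Trim9 the bound at its leading probe was 6.89-fold, and another of its probes differed by −0.03 (adjusted p = 0.705). On the Affymetrix arrays Sspn (0.83) and Fcer1g (0.26, adjusted p = 0.00262) were also called higher in B6, and Me1 (−0.10), Mettl14 (0.04), Rnf20 (0.02) and Trim9 (0.27, adjusted p = 0.0250) were not called.

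In the other direction 3 genes were detected on all D2 arrays and no B6 array. Serpina1b, an alpha-1 antitrypsin, was at least 4.315-fold higher in D2, with 8.70 to 8.88 in B6 with a median of 8.80, and 9.15 to 9.87 in D2 with a median of 9.35 (adjusted p = 2.66e-08). Its paralog Serpina1d, detected on 1 B6 array and 12 D2 arrays, differed by −0.38 (adjusted p = 6.4e-08). Genes of this cluster are near-identical copies and their probes may share targets. The repeat protein Ttc34 was at least 3.37-fold higher and the serine protease Prss41 at least 1.78-fold higher in D2.

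Markers of myelin gave 10 calls with B6 higher and none with D2 higher, and microglial markers 7 and 1. The shares called were 37.0% and 29.6%, against 11.6% of all genes. The 10 were among 27 measured genes of oligodendrocytes and myelin (20 higher in B6 and 1 in D2 at an unadjusted p under 0.05 in limma), with a median difference of 0.32 against −0.02 over all genes. With array medians centered the count was 9. On the Affymetrix arrays, where 12.5% of all genes were called, 3 of 25 myelin genes were called higher in B6 and 1 in D2. Mobp, a structural protein of myelin, had 11.78 to 12.38 in B6 with a median of 11.99, and 10.84 to 11.67 in D2 with a median of 11.17 (difference 0.84, adjusted p = 2.91e-07). Opalin (0.60), the membrane protein Mal (0.66) and the link protein Hapln2 (0.32) were also higher in B6. Of these genes Mobp was also called on the Affymetrix arrays (0.47). Opalin (0.13, adjusted p = 0.663), Mal (0.32, adjusted p = 0.128) and Hapln2 (0.26, adjusted p = 0.215) were not called there. Without the 4 dimmest D2 arrays 12 of these genes were higher in B6 and 1 was lower. No gene of 6 of oligodendrocyte precursors was called by limma (1 higher in B6 and 1 in D2 at an unadjusted p under 0.05). The mean value of the 27 myelin genes was 11.12 to 11.62 on B6 arrays with a median of 11.35, and 10.62 to 11.26 on D2 arrays with a median of 11.05, with overlap.

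Microglial genes gave 7 calls with B6 higher and 1 with D2 higher among 27 measured (9 and 3 at an unadjusted p under 0.05 in limma). The median difference of this list was 0.06, against −0.02 over all genes. C1qb, a chain of complement C1q, had 10.53 to 11.24 in B6 with a median of 10.76, and 9.87 to 10.32 in D2 with a median of 9.97 (difference 0.77, adjusted p = 1.69e-09). Fcrls, an Fc receptor-like protein of microglia, had 9.79 to 10.01 in B6 with a median of 9.93, and 8.98 to 9.37 in D2 with a median of 9.16 (difference 0.73, adjusted p = 2.41e-12). It was detected on 9 of 12 D2 arrays, so its probe was kept through B6 alone. C1qc differed by 0.58. These 3 genes had differences of 0.89, 1.71 and 1.12 on the Affymetrix arrays. The exception was the low-affinity Fc receptor Fcgr3, which was higher in D2 (−0.43, adjusted p = 7.22e-07) and was not called on the Affymetrix arrays (−0.11, adjusted p = 0.261). Fcgr3 neighbors Fcer1g on chromosome 1, in a run of 3 called genes with Sdhc, and was chosen after its values were seen. The mean value of the 27 microglial genes was 9.998 to 10.17 in B6 with a median of 10.07, and 9.88 to 10.01 in D2 with a median of 9.95.

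Of 22 astrocyte genes, 3 were called (13.6%, against 11.6% of all genes). Ntsr2, a neurotensin receptor, had 11.86 to 12.36 in B6 with a median of 12.21, and 11.13 to 11.54 in D2 with a median of 11.23 (difference 0.87, adjusted p = 5.62e-12), and the glutamate transporter Slc1a2 was lower in B6 (−0.45, adjusted p = 6.9e-06). Slc1a2 has called probes in both directions, and its call was lost with array medians centered. The last was Glul, whose call was lost when any of 18 single arrays was left out (adjusted p of up to 0.0203). Egfl7 was the called gene of 19 of blood vessels, and its call was lost in the same way (adjusted p of up to 0.0196). Of 2 measured genes of blood, the beta globin Hbb-bt was higher in B6 (1.06, adjusted p = 7.58e-10) and was detected on 6 of 12 D2 arrays. The part of residual blood in other differences was not tested. Of 10 genes of antigen presentation, the light chain B2m (0.70) and H2-T23 (0.66, detected on 9 of 12 D2 arrays) were higher in B6. H2-DMa (−0.40) and H2-Ke6 (−0.50) were higher in D2. The 2 calls with D2 higher were lost with array medians centered. H2-Ke6 lies in the MHC region but encodes a steroid dehydrogenase.

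Among genes of neuronal signaling, the share of genes called ranged from 5.0% of 20 genes of dopamine signaling to 31.6% of 19 genes of sodium and calcium channels, against 11.6% of all genes. Of 59 genes of the synaptic vesicle cycle (20.3% called), 5 were higher in B6 and 7 in D2. Sv2b, a vesicle glycoprotein, had 12.86 to 14.09 in B6 with a median of 13.57, and 11.19 to 13.13 in D2 with a median of 12.59 (difference 1.07, adjusted p = 0.000455), with overlapping strains. Among the others were the SNARE proteins Stx8 (0.58) and Vamp8 (0.29), which are known from endosomes. Stx8 and Vamp8 were detected on 11 and 7 of 12 D2 arrays. The 7 calls with D2 higher were all lost with array medians centered, where 5 genes were called higher in B6. Slc32a1, which loads GABA into vesicles, was the called member of 10 genes of GABA signaling. Its values were 14.44 to 15.12 in B6 with a median of 14.68, and 12.89 to 14.37 in D2 with a median of 13.95, without overlap (difference 0.85, adjusted p = 2.03e-05). On the Affymetrix arrays it differed by −0.16 (adjusted p = 0.120), and Sv2b (−0.10), Stx8 (−0.10) and Vamp8 (−0.06) were not called there either.

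Glutamate receptors gave 2 calls of 10, the AMPA subunit Gria1 (−0.44) and the metabotropic receptor Grm7 (−0.29). Both were higher in D2 on the Affymetrix arrays too (−0.71 and −1.84), and neither was called with array medians centered. Of 19 sodium and calcium channel genes 1 was higher in B6 and 5 in D2. Cacng5, an auxiliary subunit of AMPA receptors of the calcium channel gamma family, had 9.05 to 9.35 in B6 with a median of 9.21, and 9.40 to 10.09 in D2 with a median of 9.77 (difference −0.55, adjusted p = 1.26e-06), but was not called on the Affymetrix arrays (−0.06, adjusted p = 0.632). Without the 4 dimmest D2 arrays, and also with array medians centered, 2 of the 19 genes were called higher in D2. Among 39 potassium channel genes B6 was higher at 3 and D2 at 1. Of 34 genes of G proteins and RGS proteins 3 were called (8.8%). Rgs16, which speeds the shutoff of G proteins, was higher in B6 (0.24, adjusted p = 0.00013, detected on 11 of 12 D2 arrays) and was not called on the Affymetrix arrays (−0.27, adjusted p = 0.364). Gnb1 was higher in D2 (−0.75, and −1.87 on the Affymetrix arrays), as was Gnb4 (−0.45 there). The call of Gnb1 was lost with array medians centered.

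Of 43 genes of postsynaptic scaffolds and adhesion 3 were called (7.0%, against 11.6% of all genes). Tenm4, a teneurin of cell contacts, had 10.75 to 11.35 in B6 with a median of 11.04, and 11.73 to 12.29 in D2 with a median of 11.97 (difference −0.95, adjusted p = 9.35e-11), with the opposite direction on the Affymetrix arrays (0.49). Dlg1, detected on all B6 arrays and no D2 array, was at least 1.93-fold higher in B6 and was not called on the Affymetrix arrays (−0.01). The last was the PSD-95 gene Dlg4 (0.52), whose call was lost without the 4 dimmest D2 arrays. Of 24 cadherins and protocadherins 1 was higher in B6 and 5 in D2. Pcdhb3 was among the 5 (−0.49, and −0.93 on the Affymetrix arrays), and all 5 calls were lost with array medians centered. Cdh7, also among the 5 (−0.295), was called higher in B6 on the Affymetrix arrays (1.615). Pcdhb7 (−0.17) was not called there (0.09). Of 17 genes of this list measured there, 2 were called in each direction. Of 44 genes of actin and its regulators 2 were higher in B6 and 6 in D2. Pfn1, which delivers actin monomers, had 10.39 to 10.71 in B6 with a median of 10.58, and 10.79 to 11.45 in D2 with a median of 11.07 (difference −0.53, adjusted p = 2.1e-07). Cap1 (−0.79) and Actb (−0.87) were also higher in D2, and no actin gene was called higher in D2 with array medians centered. Tmod2, which caps actin filaments, was higher in D2 here (−0.32) and in B6 on the Affymetrix arrays (0.66).

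**Figure D4:**
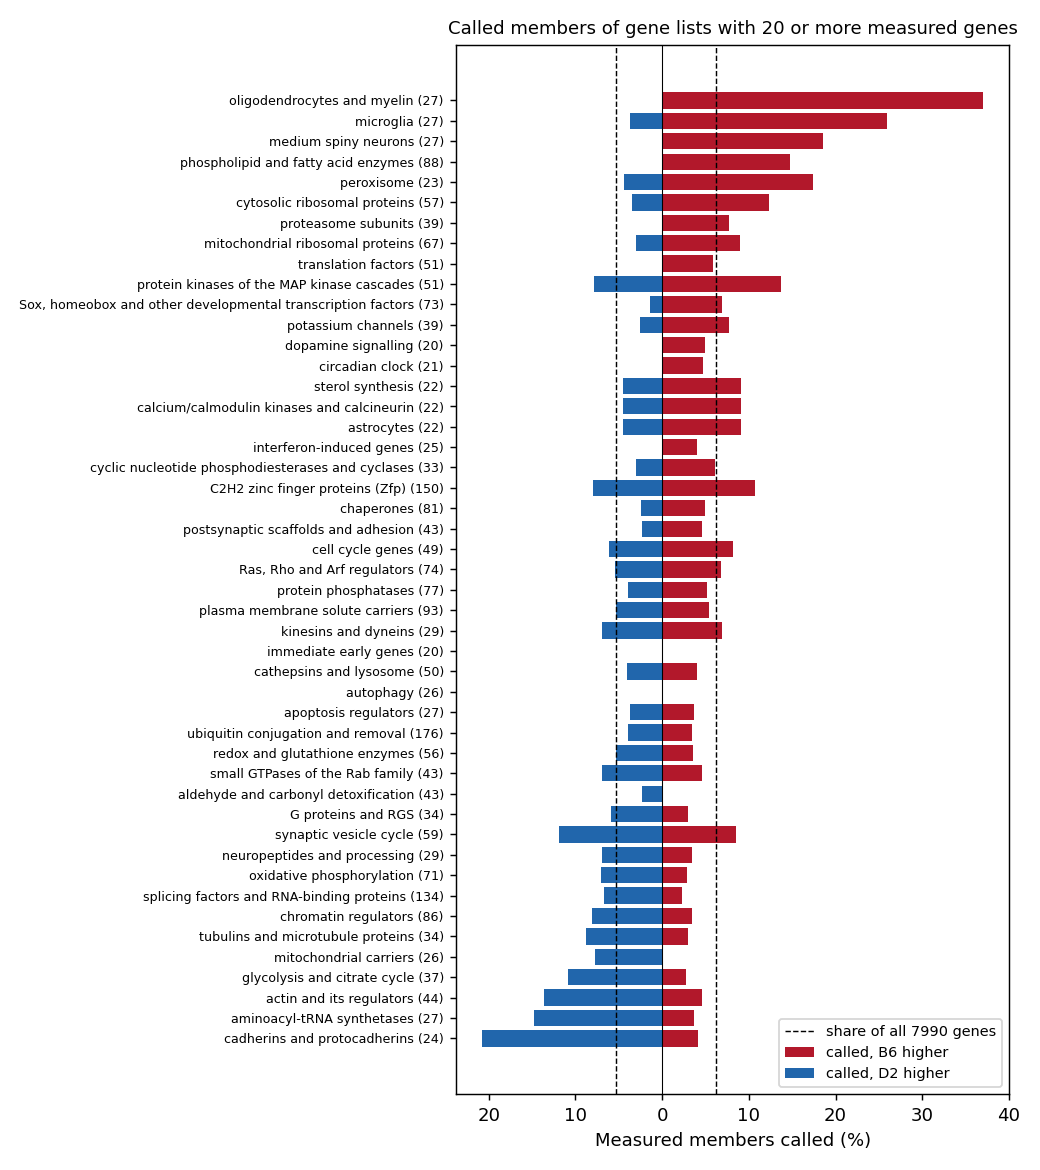
Measured members called (percent) in each gene list with 20 or more measured genes, with B6 higher in red to the right, D2 higher in blue to the left, and the number of measured genes in brackets. Dashed lines mark the shares of all 7990 genes (6.23% and 5.34%). Myelin and microglial genes lie farthest to the right and cadherins farthest to the left.

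Of 88 genes of phospholipid and fatty acid enzymes 13 were called with B6 higher and none with D2 higher (17 and 15 at an unadjusted p under 0.05 in limma), which is 14.8% of the list against 11.6% of all genes in both directions, in a list whose median was 0.01. Abhd16a, a lipase of phosphatidylserine, was detected on 8 of 12 D2 arrays and had 12.02 to 12.53 in B6 with a median of 12.29, and 8.89 to 9.21 in D2 with a median of 8.99 (difference 3.28, adjusted p = 7.4e-25). Agpat5, which acylates lysophosphatidic acid, had 10.02 to 10.34 in B6 with a median of 10.20, and 9.04 to 9.38 in D2 with a median of 9.21 (difference 0.99, adjusted p = 5.52e-15), and was also higher in B6 on the Affymetrix arrays (0.43). The N-acyl phospholipid hydrolase Abhd4 differed by 0.48. On the Affymetrix arrays Abhd16a (−0.11, adjusted p = 0.0928) and Abhd4 (0.14, adjusted p = 0.309) were not called. The 13 also include Scd1 (0.45) and Scd2 (0.65), the desaturases that make oleate, and Acaca (0.64), the enzyme that commits acetyl-CoA to fatty acids, which were chosen after their values were seen. Scd2 was higher in D2 on the Affymetrix arrays (−0.73, adjusted p = 0.00103). With array medians centered the counts were 11 and 0, and with normexp correction 13 and 1.

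Among 23 peroxisomal genes B6 was higher at 4 and D2 at 1 (21.7% called, against 11.6% of all genes). Abcd3, Nudt19, Nudt7 (0.39) and Pex19 (0.39), a chaperone of peroxisomal membrane proteins, were higher in B6. Pex19 was detected on 11 of 12 D2 Illumina arrays. It differed by 1.25 on the Affymetrix arrays, where Abcd3 was not called (0.12, adjusted p = 0.121). Of 22 genes of sterol synthesis, Insig2, which retains the sterol sensor in the endoplasmic reticulum, had 10.91 to 11.37 in B6 with a median of 11.08, and 9.62 to 10.45 in D2 with a median of 10.29 (difference 0.91, adjusted p = 1.91e-09). Msmo1, a methylsterol oxidase, differed by 2.07 and was detected on 11 of 12 D2 arrays. On the Affymetrix arrays neither was called.

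Genes of energy metabolism were called in both directions. Oxidative phosphorylation had 71 measured genes, with 2 calls higher in B6 and 5 in D2 (9.9%, against 11.6% of all genes). The subunits Ndufa9 (−0.39) and Atp5g2 (0.68, detected on 11 of 12 D2 arrays) are examples. Of 37 genes of glycolysis and the citrate cycle 1 was higher in B6 and 4 in D2 (13.5% called). The 1 was Me1, at its leading probe alone, and the 4 include the isocitrate dehydrogenase Idh1 (−0.34). No gene of either list was called higher in D2 with array medians centered. Among 56 redox and glutathione genes, the peroxiredoxin Prdx2 (1.09 at its leading probe) and the glutathione synthesis subunit Gclm (0.39) were higher in B6, and Glo1 (−0.97), which detoxifies methylglyoxal, the glutaredoxin Glrx (−0.56) and Mgst3 in D2. All 4 named with values had the same direction on the Affymetrix arrays, with calls for each.

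Of 57 cytosolic ribosomal protein genes B6 was higher at 7 and D2 at 2 (15.8% called, against 11.6% of all genes). The median of the list was −0.05. Rpl29 had 9.998 to 10.70 in B6 with a median of 10.28, and 8.95 to 9.24 in D2 with a median of 9.04 (difference 1.24, adjusted p = 1.94e-14), with detection on 10 of 12 D2 arrays. Rps15a differed by 0.73 and Rps2 by 0.49. Ribosomal protein genes have many processed pseudogenes, so probe targets are uncertain. Of 67 mitochondrial ribosomal protein genes B6 was higher at 6 and D2 at 2, and the share called (11.9%) was near that of all genes. Mrpl48 had 10.91 to 11.31 in B6 with a median of 11.18, and 9.44 to 10.14 in D2 with a median of 9.87 (difference 1.29, adjusted p = 1.63e-13), but −0.07 on the Affymetrix arrays, where 2 genes of this list were called higher in B6, Mrpl55 (0.61) and Mrpl35 (1.75), and 4 in D2.

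Of 27 aminoacyl-tRNA synthetase genes 1 was higher in B6 and 4 in D2 (18.5% called, against 11.6% of all genes). Fars2 had 11.32 to 11.70 in B6 with a median of 11.56, and 11.76 to 12.04 in D2 with a median of 11.90 (difference −0.37, adjusted p = 2.15e-06), and −0.42 on the Affymetrix arrays. Fars2, Wars2 (−0.49) and Vars2 (−0.27) encode the enzymes of mitochondria. Once array medians were centered, 1 synthetase gene was called higher in D2. Of 39 proteasome genes 3 were called (7.7%), all higher in B6: the catalytic subunits Psmb6 (2.99) and Psmb5 (0.96) and the activator Psme4 (0.42). Psmb6 and Psmb5 were detected on 11 and 10 of 12 D2 arrays, so their probes were kept through B6 alone. The list of ubiquitin conjugation and removal was the largest, with 176 genes, and 7.4% were called, 6 higher in B6 and 7 in D2. Chaperones had the same share, with 4 of 81 higher in B6 and 2 in D2. Hspb6, a small heat shock protein, had 10.38 to 10.80 in B6 with a median of 10.67, and 9.62 to 10.35 in D2 with a median of 9.68 (difference 0.78, adjusted p = 2.56e-08).

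In the nucleus, C2H2 zinc finger genes named Zfp had 28 calls of 150 measured (18.7%, against 11.6% of all genes). Of these 16 were higher in B6 and 12 in D2, or 18 and 3 with array medians centered. Beside Zfp365, Zfp277 had 10.59 to 11.01 in B6 with a median of 10.79, and 9.68 to 10.25 in D2 with a median of 9.86 (difference 0.88, adjusted p = 1.14e-11), and Zfp131 differed by 0.62. Zfp277 was not called on the Affymetrix arrays (−0.03, adjusted p = 0.764). Of 134 splicing factors and RNA-binding proteins 3 were higher in B6 and 9 in D2. Rbm45 had 9.23 to 9.79 in B6 with a median of 9.60, and 10.11 to 10.63 in D2 with a median of 10.29 (difference −0.72, adjusted p = 4.54e-10), and −1.59 on the Affymetrix arrays. Ddx39b, a helicase of splicing and mRNA export, had 13.004 to 13.58 in B6 with a median of 13.23, and 13.64 to 14.79 in D2 with a median of 13.89 (difference −0.78, adjusted p = 8.85e-07). Rbm28 was higher in B6 on both arrays (0.61 and 1.15). Of 86 chromatin regulators 11.6% were called, the share of all genes. Of these 3 were higher in B6, with the deacetylase Hdac4 (0.44), and 7 in D2, with the nucleosome-binding protein Hmgn2 (−0.69) and the remodeler Chd8 (−0.42). Hdac4 was detected on 10 of 12 D2 arrays. After centering of array medians 1 chromatin regulator was called higher in D2.

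Of 51 genes of the MAP kinase cascades and their phosphatases B6 was higher at 7 and D2 at 4 (21.6% called, against 11.6% of all genes). The phosphatase Dusp7 had 11.55 to 12.17 in B6 with a median of 11.88, and 10.67 to 11.43 in D2 with a median of 11.11 (difference 0.75, adjusted p = 4.9e-08), and Dusp26 differed by 0.65. Dusp26 (0.28, adjusted p = 0.00345) was also called on the Affymetrix arrays and Dusp7 (0.15, adjusted p = 0.292) was not. Map4k5 and Map3k4, higher in B6 by 0.70 and 0.68, were detected on 6 and 1 of 12 D2 arrays. The count was 6 and 1 without the 4 dimmest D2 arrays. Bhlhe40, a repressor within the circadian clock, was the called member of 21 clock genes, with 11.77 to 12.94 in B6 with a median of 12.61, and 10.27 to 11.64 in D2 with a median of 11.41 (difference 1.16, adjusted p = 3.15e-06), and −0.03 on the Affymetrix arrays. None of 20 immediate early genes was called by limma (3 higher in B6 and 1 in D2 at an unadjusted p under 0.05), and none of 26 autophagy genes (1 and 6).

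The calls were spread over all autosomes, with unequal shares. The share of tested genes called was highest on chromosomes 14 (17.7%, 47 of 266), 1 (16.3%, 66 of 405) and 3 (15.5%, 60 of 387). It was lowest on chromosomes 10 (6.3%, 25 of 394) and 19 (6.9%, 20 of 288) among autosomes, and 3.4% (9 of 263) on the X chromosome. Of 19 autosomes 10 lay above the share of all genes. Without the 4 dimmest D2 arrays the order changed: the share was highest on chromosome 1 (17.5%), followed by chromosomes 4 and 13 (15.9% each), with 15.8% on chromosomes 3 and 14, and it was 4.1% on chromosome 10. Genes of a chromosome share haplotypes and are not independent, and no test was made between chromosomes.

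**Figure D5:**
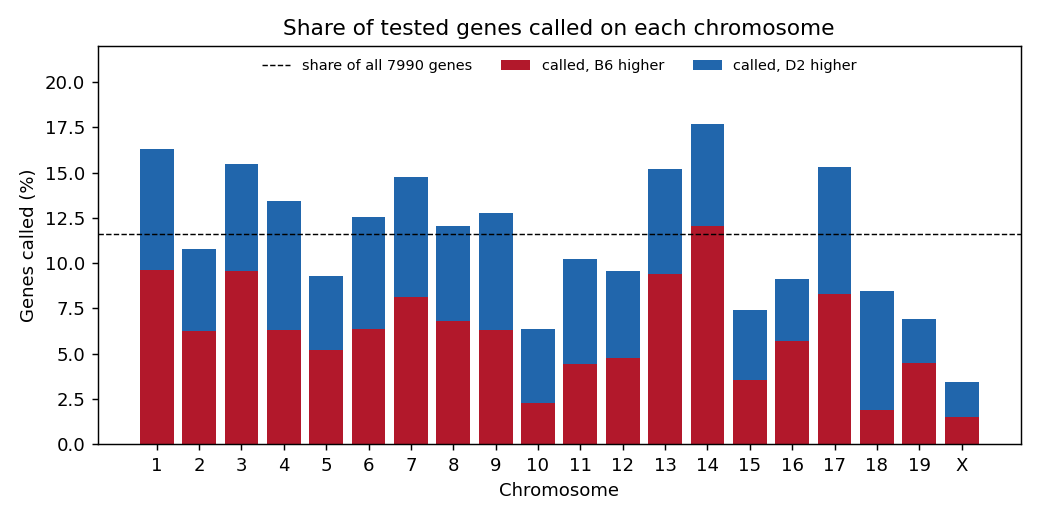
Share of tested genes called (percent) on each chromosome, with B6 higher in red and D2 higher in blue stacked above it, and a dashed line at the share of all genes (11.6%). Chromosomes 14, 1 and 3 stand highest and the X chromosome lowest.

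Called genes also lay next to each other, taking tested genes in the order of the RefSeq annotation of GRCm38.p6. The longest run held 6 genes on chromosome 4, with directions mixed: Map3k6, Trnp1 and Gpn2 were higher in B6 and Ahdc1, Nudc and Hmgn2 in D2. Nudc, a dynein-associated chaperone, had 13.71 to 14.11 in B6 with a median of 13.97, and 14.37 to 14.99 in D2 with a median of 14.70 (difference −0.81, adjusted p = 5.81e-10). A run of 5 genes on chromosome 2 was higher in B6 throughout. It held the actin-severing factor Dstn (0.56), the sorting nexin Snx5 (1.17), Ovol2 (0.65), Kat14 (0.19) and the serine hydrolase Rbbp9 (1.02). Snx5 and Ovol2 were detected on 4 and 8 of 12 D2 arrays, and on the Affymetrix arrays Snx5 was lower in B6 (−0.30). Genes of these runs were chosen for their position after their values were seen.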

How the data were processed

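Striatal RNA of 12 B6 and 12 D2 male mice had been hybridized to Illumina MouseRef-8 v2.0 arrays. The deposited normalized values are on the authors' VST scale, near log2. The paper names robust spline normalization, and the sorted values of all arrays are equal within 0.00192. The bead signal intensities were deposited by the authors as averages per probe without normalization, together with a detection p-value against negative controls, which served as the filter. For the Affymetrix arrays the deposited log2 values are the authors' RMA values, made after masking of probes with SNPs.

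Probes detected at a p under 0.05 on all 12 arrays of at least 1 strain were fitted in R 4.3.3 with limma 3.58.1 (functions lmFit and eBayes, with statmod 1.5.0) as B6 minus D2, 2-sided, without a pseudocount. Calls required an adjusted p (Benjamini-Hochberg over all tested probes) under 0.01. The p-values rest on the spread between these mice only. Affymetrix probesets in the upper 50% by mean were fitted with strain and sex. The fits were tested on simulated data. Gene lists were counted and not tested as sets. Symbols, chromosomes and gene order came from the platform annotation and the RefSeq table of GRCm38.p6, and probe sequences were decoded from the deposited probe identifiers. Probe positions were not used. The paper describes the Illumina mice of each strain as an independent group and a group that was also sequenced. The sources used here do not say which mice belong to which group, so the fit did not include these groups.

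Named were, in each direction, the 12 called genes that differed most among those detected on all 24 arrays without overlap of the strains, up to 6 in each direction detected on all arrays of 1 strain and on none of the other, up to 4 called members of each of 65 lists with the lowest adjusted p, and the brightest 8 markers of medium spiny neurons. Any other gene was named after its values had been seen, also where the text does not say so, as for Mgst3. The members and lists were chosen with earlier results of these data known. Alternatives covered normalization, filters, dim arrays, array weights, the variance model, replicate numbers, thresholds, the probe taken for a gene and the omission of each array in turn.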

Additional observations from a re-analysis of the deposited data

Results flagged for a closer look

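Of 64 genes called on both kinds of array whose strains did not overlap on either, 58 had the same direction and 6 had opposite directions. The Affymetrix arrays came from other mice, and the difference between the arrays was not tested at any of the 6. Lypd1, a modulator of nicotinic receptors, was lower in B6 on the Illumina arrays (−0.94, adjusted p = 5.48e-10 from limma) and higher in B6 on the Affymetrix arrays (1.38, adjusted p = 1.51e-11). The teneurin Tenm4 was also lower in B6 on the Illumina arrays (−0.95) and higher on the Affymetrix arrays (0.49), as was Prxl2c (−0.31 and 0.69), which was detected on 7 of 12 B6 and 12 of 12 D2 Illumina arrays. Kansl1l was higher in B6 on the Illumina arrays (0.595) and lower on the Affymetrix arrays (−0.80), and was detected on 12 of 12 B6 and 9 of 12 D2 Illumina arrays. The DNA glycosylase Mpg was also higher in B6 on the Illumina arrays (0.25) and lower on the Affymetrix arrays (−0.57), and was detected on 12 of 12 B6 and 2 of 12 D2 Illumina arrays. The coatomer subunit Copb1 was detected on 12 of 12 B6 and 0 of 12 D2 Illumina arrays, so that its normalized difference of 0.36 is no measured size and B6 was at least 2.28-fold higher there. On the Affymetrix arrays it was lower in B6 (−0.45). Of the 64 genes 40 were detected on all 24 Illumina arrays, and of these 2 had opposite directions, Lypd1 and Tenm4.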

How the results depend on the processing

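At their leading probes, the 33 genes named for the size of their difference or for detection in 1 strain kept direction and call under every alternative normalization, filter, fit and array omission. Of all 192 called genes named by the rules, 126 did. Changes of threshold and of the probe taken for a gene are not part of these counts. Of the 33 genes, 6 have another probe that was not called. With array medians centered, D2 was higher at 123 probes and 110 genes, against 488 and 427, 47 lists had more calls with B6 higher, against 31, and 1 gene had called probes in both directions, against 13. The differences of Dclk1 (0.028), Rab9b (0.064) and Vgf (0.034) reversed to B6 higher under it, without a call. Among probes detected on all 24 arrays B6 was higher at 328 probes and 288 genes. At an adjusted p under 0.05 D2 was higher at 945 probes and 818 genes, and at one under 0.001 at 266 probes and 229 genes. Without the 4 dimmest D2 arrays 290 probes were detected on all arrays of B6 alone and 814 on all arrays of D2 alone. This alternative was added after seeing the data, and it required detection on fewer D2 than B6 arrays. Leaving out each array in turn gave 549 to 605 probes higher in B6 and 402 to 528 higher in D2, or 460 to 506 and 346 to 463 genes, and 9 named genes lost their call without at least 1 array. Same-numbered arrays share only a number: over 12 pairs their deviations correlated at −0.431 to 0.286. The replicate block left 457 probes higher in B6 and 332 in D2, or 390 and 287 genes. The series matrix values were identical to the normalized ones and gave no further setting. The causes of these changes were not tested.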

Other observations

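Histone genes were in none of the lists above and were chosen after their values were seen. Most replication-dependent histone genes lie in clusters, the largest of them on chromosome 13, and their transcripts lack poly(A) tails. Of 35 measured histone genes 17 were called higher in B6 and none higher in D2 (22 and 1 at an unadjusted p under 0.05 in limma), or 48.6% of them higher in B6 against 6.23% of all genes, with a median difference of 0.22 against −0.02 over all genes. With array medians centered, a scaling that moves the median of all genes toward B6, the count was 21. Without the 4 dimmest D2 arrays it was 17. Of 23 on chromosome 13, 14 were called. The linker histone gene H1f2 had values of 11.42 to 12.22 in B6 with a median of 11.81, and 10.40 to 11.24 in D2 with a median of 11.07, without overlap (difference 0.74, adjusted p = 3.62e-07 from limma), and it also differed by 0.73 on the Affymetrix arrays (adjusted p = 5.84e-05). H2bc7 differed by 0.77 and H2bc9 by 0.62. H2aw and H2aj were detected on 12 of 12 B6 arrays and 0 of 12 D2 arrays. The variant genes H3f3a (−0.17, adjusted p = 0.239), H3f3b (−0.06, adjusted p = 0.778), H2ax (−0.01, adjusted p = 0.872) and H2az1 (−0.02, adjusted p = 0.883) did not pass, but H3f3a was called higher in D2 on the Affymetrix arrays (−0.49, adjusted p = 0.000987). Histone genes of a family are near-identical copies, so the genes behind single probes are uncertain.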
